A study of Mus musculus with 4 samples.

Results

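The epidermal growth factor (EGF) receptor family of mouse tooth germs was followed over 10 genes, namely 3 receptors (Egfr, Erbb2 and Erbb3), 6 ligands (Egf, Tgfa, Areg, Ereg, Hbegf and Btc) and the receptor inhibitor Errfi1. Its members were all probe sets annotated to exactly 1 of these symbols, which gave 14 of the 12422 probe sets on the array that are no controls. They stand for 8 of the 10 genes, out of 8251 genes that the array names singly, and no probe set used here was annotated to Erbb2 or Areg. The genes were chosen because dioxin harm to teeth has been tied to EGF receptor signalling, and the rule that picks their probe sets uses no measured value.

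Receptors of this family span the cell membrane and carry a tyrosine kinase inside the cell. Ligands are made as membrane-bound precursors, are cut free by metalloproteases and drive the receptors into pairs, after which the kinases switch on the Ras-MAP kinase and PI3 kinase-Akt cascades. Egfr binds Egf, Tgfa, Areg, Ereg, Hbegf and Btc, while Erbb3 binds neuregulins, has little kinase activity of its own and signals with a partner receptor. In developing teeth EGF receptor signalling acts on the growth and survival of epithelial and mesenchymal cells.

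The tissue was the mandibular molar region of NMRI mouse embryos at embryonic day 14, grown as explants for 24 h in serum-containing medium. In the first group 1 µM TCDD (2,3,7,8-tetrachlorodibenzo-p-dioxin, a ligand of the aryl hydrocarbon receptor) was added, and in the second group the solvent DMSO at 0.65%. Each group had 2 arrays, and each array carried RNA from about 60 pooled explants of 3 experiments, with 11 µg of total RNA labelled for both arrays with replicate number 1, 8 µg for TCDD replicate 2 and 7 µg for DMSO replicate 2. TCDD was itself dissolved in DMSO, and ascorbic acid in the medium is given for DMSO replicate 2 alone. The explants hold dental epithelium, dental mesenchyme and neighbouring tissue together, so for every gene below fewer expressing cells and less RNA per cell cannot be told apart.

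Signals are MAS5 values on a linear scale, each array scaled to a target of 100, and their errors are SDs over the 2 pools of a group. Differences are TCDD minus DMSO on the log2(signal + 16) scale, with a standard error (SE) or 95% interval from limma, and this scale shrinks the change of dim probe sets. A probe set entered the main test when its mean signal over the 4 arrays was at least 50, and 5783 did. The exposure was visible in Cyp1a1 (94715_at), a classical target of the dioxin receptor, with signals of 194.8 and 210.5 in TCDD against 14.7 and 12.7 in DMSO, and in Cyp1b1 (99979_at), another target, with 519.9 and 455.0 in TCDD against 98.6 and 77.8 in DMSO. Both passed limma's test, with adjusted p of 3.68e-04 and 9.18e-04. DMSO replicate 1 stood apart in its dim signals, with a median signal over all probe sets of 47.1, against 40.8 and 40.2 on the TCDD arrays and 40.0 on DMSO replicate 2. The 4 arrays showed the labelled tissue through Msx1 and Barx1 of the dental mesenchyme and Cdh1 and Trp63 of the epithelium, all above 100, but Vim and the keratins Krt5, Krt14 and Krt15 had signals of at most 30.0, 9.6, 10.8 and 1.3 on any array.

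No member of the family changed past the test. Of the 14 member probe sets, 4 reached the filter, for Erbb3, Hbegf and Errfi1, and 0 of these 4 passed limma's adjusted p of 0.05, where 0.0692% of all tested probe sets did. At an unadjusted p under 0.05 the count of these 4 was also 0, where 2.59% of all tested probe sets passed. When all probe sets were fitted without the filter, 0 of the 14 passed limma's adjusted p, where 0.0161% of all did, and 2, both of Egf, had an unadjusted p under 0.05, where 3.64% of all did. With 2 arrays per group the 95% intervals of the 4 tested members all included 0, and each is given with its probe set below.

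**Figure D1:**
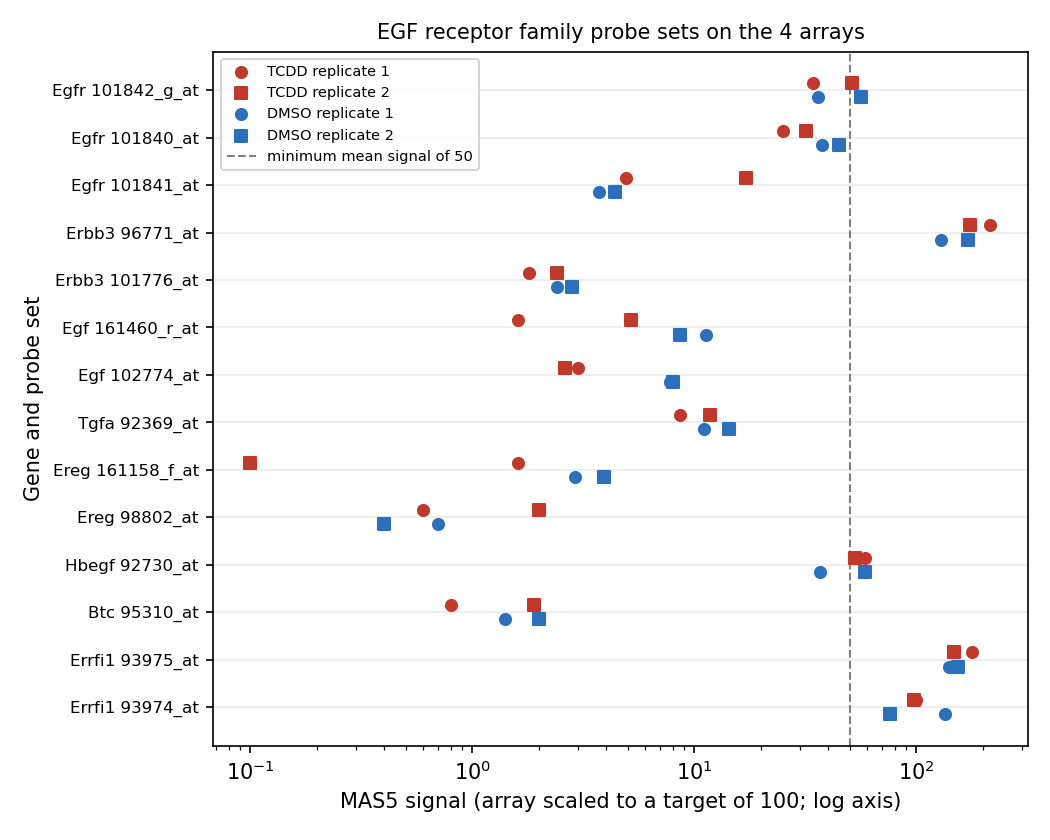
Signals of the 14 EGF receptor family probe sets on the 4 arrays. Each row is a gene and probe set, the horizontal axis is the MAS5 signal on a log axis, red marks are TCDD arrays, blue marks are DMSO arrays, circles are replicate 1 and squares replicate 2, and the dashed line is the minimum mean signal of 50. The points of Erbb3 96771_at, Hbegf and both Errfi1 probe sets lie near or right of the line, and those of Egf, Tgfa, Ereg and Btc lie between 0.1 and 14.3.

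Egfr, the receptor that binds all of the ligands listed here, was measured by 3 probe sets that did not move together. The probe set 101840_at had signals of 25.2 and 31.9 in TCDD, against 37.4 and 44.6 in DMSO. Both TCDD arrays lay under both DMSO arrays, with means of 28.55 ± 4.74 in TCDD and 41.0 ± 5.09 in DMSO (SD, n = 2 each). In the fit of all probe sets its difference was -0.36 ± 0.27 (SE) (log2; 95% interval -0.99 to 0.28), and limma's adjusted p was 0.979. With quantile normalization, which gives the arrays the same distribution of signals, it was -0.24 and the groups overlapped.

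The other Egfr probe sets are annotated to a shared sequence record. The probe set 101842_g_at had 34.1 and 51.1 in TCDD, against 36.1 and 56.6 in DMSO. Its groups overlapped and its higher signals were the replicate 2 arrays of both groups, so that the difference of -0.09 ± 0.30 (SE, log2) was smaller than the spread between pools, with a limma adjusted p of 0.994. The probe set 101841_at had 4.9 and 17.1 in TCDD, against 3.7 and 4.4 in DMSO, so it ran the other way. Both TCDD arrays lay above both DMSO arrays, also with quantile normalization, and TCDD replicate 2 stood above the rest. Its log2 difference was 0.39 ± 0.22 (SE; limma adjusted p 0.979) with all arrays, 0.5 with quantile normalization and 0.06 without TCDD replicate 2. All 3 Egfr probe sets were under the mean signal of 50, so a direction for Egfr cannot be read from them.

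The sequence upstream of Egfr is shown because TCDD acts through a transcription factor with a known core motif. The letters GCGTG, on either strand, form the core of the xenobiotic response element bound by the dioxin receptor with its partner Arnt, and they are also one form of the hypoxia response element. These letters occurred in 28.2% of 32851 upstream windows of 250 bases (RefSeq, GRCm38.p6), among them those of Cyp1a1 and Cyp1b1. Sequence outside the windows was not searched, so a window without the letters says nothing about sites elsewhere. The Egfr window, chr11:16751953-16752202 on the plus strand, held 0 copies, and 60.8% of its bases were G or C, against a median of 52.4% over all windows. It is given 5′ to 3′, ending at the base before the annotated transcript start.
Egfr: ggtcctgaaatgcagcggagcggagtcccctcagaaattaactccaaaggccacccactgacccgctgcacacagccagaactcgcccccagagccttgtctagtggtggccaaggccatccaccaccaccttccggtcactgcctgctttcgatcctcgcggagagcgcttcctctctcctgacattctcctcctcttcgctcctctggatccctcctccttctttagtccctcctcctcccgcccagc

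Erbb3, the neuregulin receptor, was measured at 96771_at with signals of 215.8 and 174.1 in TCDD, against 129.3 and 171.1 in DMSO. Both TCDD arrays lay above both DMSO arrays, but TCDD replicate 2, at 174.1, was close to DMSO replicate 2, at 171.1. The means were 194.95 ± 29.5 in TCDD and 150.2 ± 29.6 in DMSO (SD, n = 2 each). The log2 difference was 0.35 ± 0.22 (SE; 95% interval -0.14 to 0.83) and did not pass, with a limma adjusted p of 0.997. It was 0.67 between the arrays numbered 1 and 0.02 between those numbered 2, and 0.17 without DMSO replicate 1. Among the 4 tested members, 1 (25.0%) did not overlap between the groups, where 29.8% of all tested probe sets did not. The other Erbb3 probe set, 101776_at, had signals of 1.8 and 2.4 in TCDD, against 2.4 and 2.8 in DMSO.

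Erbb3 is made by epithelia and by Schwann cells of nerves. Markers of the dental epithelium had summed signals of 3189.2 and 3503.8 in TCDD, against 2318.8 and 3035.0 in DMSO, over 13 genes on the array of 14 listed. Most of each sum came from Dsp and Perp, so the sums mainly follow these genes. Dsp had 1379.2 and 1566.5 in TCDD, against 936.4 and 1346.5 in DMSO. Perp had 756.8 and 738.0 in TCDD, against 393.2 and 592.1 in DMSO. Of the 10 markers tested, 8 were higher and 2 lower in TCDD with a median log2 difference of 0.20, where 51.1% of all tested probe sets were higher. None of the 10 passed limma's adjusted p, and 1 had an unadjusted p under 0.05, where 2.59% of all did. Cdh1, which encodes E-cadherin, ran the other way, with 101.2 and 120.5 in TCDD, against 170.3 and 141.1 in DMSO, and a log2 difference of -0.44 ± 0.21 (SE; limma adjusted p 0.997). None of these 13 markers was listed at 0 on any array. Nerve and Schwann cell markers summed to 832.8 and 705.4 in TCDD, against 785.3 and 786.6 in DMSO, over 9 genes of 12, with a median log2 difference of 0.00 over the 3 tested. Most of each of these sums came from Tubb3, with 536.2 and 436.9 in TCDD, against 485.4 and 532.6 in DMSO, so they mainly follow that gene. The part of either tissue in the Erbb3 signals was not tested.

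The ligands were dim. Hbegf, a heparin-binding ligand of Egfr, was the only ligand that reached the filter, at a mean signal of 51.95 over the 4 arrays. It had signals of 58.7 and 53.1 in TCDD, against 37.0 and 59.0 in DMSO. The groups overlapped, and DMSO replicate 1 alone was low. The log2 difference was 0.19 ± 0.26 (SE; 95% interval -0.38 to 0.75; limma adjusted p 0.997), and without DMSO replicate 1 it was -0.06.

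Egf, the founding ligand of the family, was lower in both TCDD pools at both of its probe sets, at signals near the bottom of the scale. The probe set 102774_at had 3.0 and 2.6 in TCDD, against 7.8 and 8.0 in DMSO, a ratio of means of 0.354. The probe set 161460_r_at had 1.6 and 5.2 in TCDD, against 11.3 and 8.6 in DMSO, a ratio of means of 0.342. In the fit of all probe sets their log2 differences were -0.35 ± 0.13 and -0.42 ± 0.16 (SE), with unadjusted p of 0.0269 and 0.0297, and limma adjusted p of 0.979 for both. Both TCDD arrays stayed under both DMSO arrays at both probe sets with quantile normalization, where the log2 differences were -0.24 and -0.31 (unadjusted p 0.0823 and 0.0686 in limma, adjusted p 0.993 for both). At an offset of 1 in place of 16 the differences were -1.23 and -1.44, and at 64 they were -0.11 and -0.13, so their size rests on the offset.

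The remaining ligands had signals under 15 on every array. Tgfa, which encodes the ligand TGF-alpha, had 8.6 and 11.8 in TCDD, against 11.0 and 14.3 in DMSO, and the groups overlapped. Ereg, which encodes epiregulin, had 1.6 and 0.1 in TCDD, against 2.9 and 3.9 in DMSO, at 161158_f_at, and 0.6 and 2.0 in TCDD, against 0.7 and 0.4 in DMSO, at 98802_at. At 161158_f_at both TCDD arrays lay under both DMSO arrays, but with quantile normalization they overlapped. At 98802_at the groups overlapped, but with quantile normalization both TCDD arrays lay above both DMSO arrays. Btc, which encodes betacellulin, had 0.8 and 1.9 in TCDD, against 1.4 and 2.0 in DMSO, and overlapped. Their log2 differences lay between -0.20 and 0.06, with limma adjusted p of 0.979 to 0.992 in the fit of all probe sets.

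Being lower in TCDD at a dim probe set was common on these arrays. Of the 14 member probe sets, 6 (42.9%) did not overlap between the groups, 2 higher and 4 lower in TCDD, where 31.6% of all probe sets did not, 10.8% higher and 20.8% lower. Among the 10 members under the filter these were 5 (50.0%), 1 higher and 4 lower, where 33.1% of all 6639 probe sets under the filter did not overlap, 6.88% higher and 26.2% lower. With quantile normalization and no filter together, an alternative chosen after the data were seen, these shares of all probe sets under the filter became 14.9% higher and 15.9% lower, and the 10 members gave 2 higher and 2 lower. The 2 still lower were both of Egf, at signals near the bottom of the scale, and 2 of 10 is near the 15.9% of all.

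Errfi1 encodes an inhibitor (also called Mig6) that binds the receptor kinases, is itself induced by receptor activity and so gives negative feedback. At 93975_at it had signals of 177.8 and 147.7 in TCDD, against 140.3 and 154.3 in DMSO. The groups overlapped, with means of 162.75 ± 21.3 in TCDD and 147.3 ± 9.90 in DMSO (SD, n = 2 each), and the log2 difference was 0.13 ± 0.21 (SE; 95% interval -0.33 to 0.58; limma adjusted p 0.997). It was 0.00 without TCDD replicate 1, 0.25 without TCDD replicate 2, 0.06 without DMSO replicate 1 and 0.19 without DMSO replicate 2. At 93974_at it had 99.3 and 98.0 in TCDD, against 134.6 and 75.9 in DMSO, so that the DMSO pools lay on either side of the TCDD pools. That log2 difference was -0.04 ± 0.26 (SE; 95% interval -0.60 to 0.53; limma adjusted p 0.997), with values of 0.32 without DMSO replicate 1 and -0.39 without DMSO replicate 2.

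Of the 5 measured members with an upstream window in the RefSeq table, which has 7 windows for them, 3 windows held GCGTG on either strand. The share over all windows was 28.2%. The 3 windows were those of Tgfa, Btc and the downstream start of Errfi1. Their G or C content was 69.2%, 59.6% and 64.8%, against a median of 52.4% over all windows. The Errfi1 window, chr4:150854820-150855069 on the plus strand, held 2 copies, which start 137 and 78 bases before the transcript start and are written in capitals below, the first on the opposite strand. It is shown because it has the motif and its gene reached the filter, unlike Tgfa and Btc. A match says nothing about binding.
Errfi1: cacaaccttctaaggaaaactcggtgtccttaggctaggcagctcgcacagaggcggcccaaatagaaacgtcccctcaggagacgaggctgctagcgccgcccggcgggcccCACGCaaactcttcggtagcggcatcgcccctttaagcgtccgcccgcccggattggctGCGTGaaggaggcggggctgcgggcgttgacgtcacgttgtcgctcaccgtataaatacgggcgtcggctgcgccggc

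**Figure D2:**
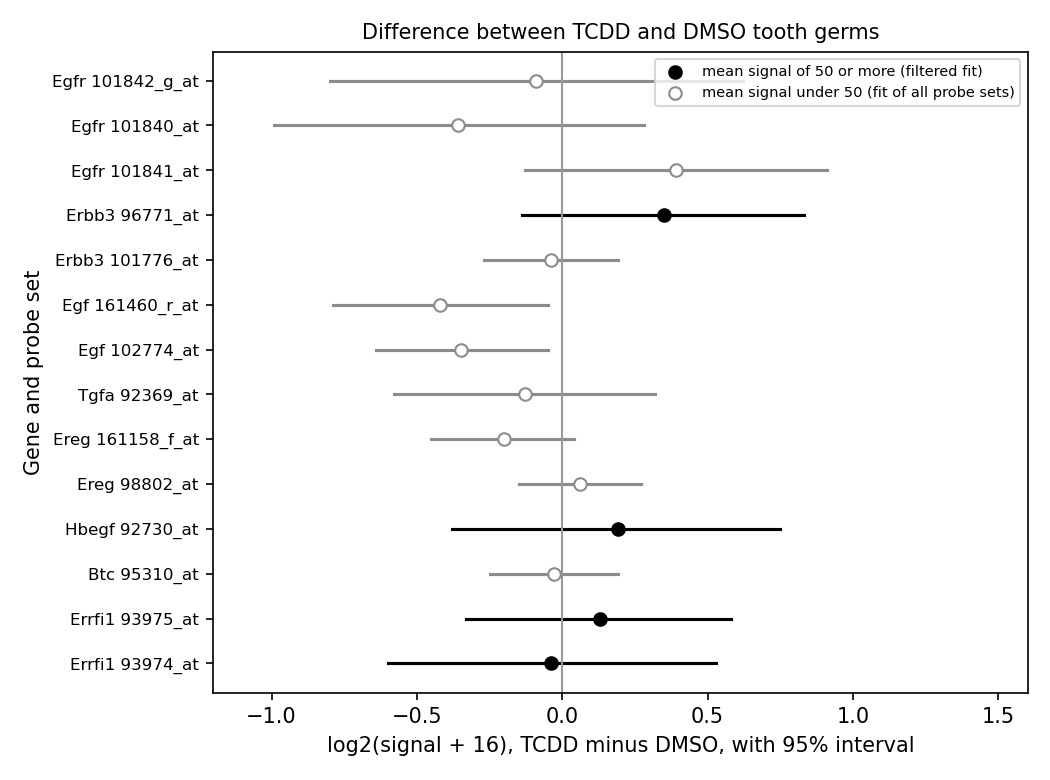
Differences between TCDD and DMSO tooth germs for the 14 member probe sets. The horizontal axis is log2(signal + 16), TCDD minus DMSO, with points for the estimate and lines for limma's 95% interval, filled black for the 4 at or above the minimum mean signal of 50 and open grey for the 10 below it, fitted with all probe sets and no filter. The intervals of 12 of the 14 include 0, and the other 2 are those of Egf.

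Other genes of the pathway did not change past the test either. The lists held 101 genes without the members, of which 75 were on the array and 50 were tested. Of these 50, 0 passed limma's adjusted p (1 had an unadjusted p under 0.05), 30 were higher and 20 lower in TCDD, and their median log2 difference was 0.15, beside 0.01 and 51.1% higher over all tested probe sets. Without the filter the median of the 75 pathway genes on the array was 0.02, beside -0.05 and 39.3% higher over all probe sets. The groups did not overlap for 20 of the 50 (40.0%), 14 higher and 6 lower, where 29.8% of all tested probe sets did not overlap, 15.3% higher and 14.6% lower.

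The 2 other family genes on the array were under the filter. Erbb4, a receptor for neuregulins and Btc, had signals of 1.4 and 2.9 in TCDD, against 6.1 and 2.3 in DMSO. Nrg3, a neuregulin ligand, had 5.5 and 5.6 in TCDD, against 9.3 and 3.6 in DMSO. Both overlapped between the groups.

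Of the genes listed for ligand release or its inhibition, 3 of 7 on the array were tested, with 0 past the test. Adam9 and Adam10 were higher, and the inhibitor gene Timp3 was lower. Adam9, a membrane metalloprotease gene, had 76.6 and 53.5 in TCDD, against 49.3 and 50.9 in DMSO, and did not overlap. Adam10, a sheddase of ligand precursors, had 215.9 and 177.4 in TCDD, against 187.5 and 149.5 in DMSO, and overlapped. Its other probe set, 100751_at, had 41.8 and 87.6 in TCDD, against 49.9 and 85.0 in DMSO, a log2 difference of -0.08. Timp3, a metalloprotease inhibitor gene, had 216.0 and 210.9 in TCDD, against 239.1 and 256.1 in DMSO, and did not overlap. Their log2 differences were 0.28 ± 0.24 for Adam9, 0.21 ± 0.21 for Adam10 and -0.20 ± 0.19 for Timp3 (SE), each with a limma adjusted p of 0.997.

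Of the receptor inhibitors and turnover genes 10 were tested, 5 higher and 5 lower, with a median log2 difference of 0.04. Spry4, a feedback inhibitor of receptor tyrosine kinase signalling, had 38.9 and 66.8 in TCDD, against 103.9 and 79.0 in DMSO. Both TCDD pools were under both DMSO pools, with a log2 difference of -0.66 ± 0.26 (SE; unadjusted p 0.0288, limma adjusted p 0.997). Ptpn1, a tyrosine phosphatase gene that acts on receptor kinases, had 292.0 and 270.1 in TCDD, against 232.6 and 230.6 in DMSO, and a log2 difference of 0.26 ± 0.19 (SE; limma adjusted p 0.997). Eps15, an endocytic adaptor, and Cav1, which encodes caveolin, overlapped between the groups, with log2 differences of 0.33 ± 0.24 and 0.27 ± 0.21 (SE). Both genes have a second, dimmer probe set, with log2 differences of -0.10 and -0.16.

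Of the adaptors and kinases 20 were tested, 11 higher and 9 lower, with a median log2 difference of 0.05. Crkl, an adaptor gene, had 160.5 and 145.2 in TCDD, against 121.8 and 116.2 in DMSO, and its other, dimmer probe set differed by -0.21 (log2). Akt1, a kinase of the survival branch, had 250.1 and 239.2 in TCDD, against 331.5 and 271.9 in DMSO, while Akt2, a related kinase, had 124.8 and 180.5 in TCDD, against 76.1 and 156.6 in DMSO. Stat5a, a transcription factor gene, had 113.0 and 112.0 in TCDD, against 172.6 and 121.0 in DMSO, and a difference of 0.02 at its other probe set. The log2 differences of the 4 genes were 0.32 for Crkl, -0.28 for Akt1, 0.40 for Akt2 and -0.32 for Stat5a, each with a limma adjusted p of 0.997.

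Of the early and delayed targets, genes whose transcription growth factors induce, 17 were tested, 12 higher and 5 lower, with a median log2 difference of 0.30. The groups did not overlap for 5 of the 17. Counted in either direction, this share was near the 29.8% of all tested probe sets that did not overlap. All 5 were higher, where the share of all tested probe sets was 15.3% higher and 14.6% lower. The 5 genes were read on the same 4 arrays and are not independent, and their common direction was not tested. Of the 17, 0 passed limma's adjusted p and 0 had an unadjusted p under 0.05, where 2.59% of all tested probe sets did. Dusp1, a MAP kinase phosphatase gene, had 238.7 and 216.3 in TCDD, against 139.8 and 187.4 in DMSO. Phlda1, an early response gene, had 237.1 and 165.5 in TCDD, against 132.6 and 147.2 in DMSO. Their log2 differences of 0.45 ± 0.21 and 0.46 ± 0.22 (SE) had unadjusted p of 0.0588 and 0.0643 and limma adjusted p of 0.997. Ier3, an early response gene, had 250.6 and 458.0 in TCDD, against 166.8 and 305.8 in DMSO, and Cdkn1a, the cell cycle inhibitor p21, had 75.4 and 107.2 in TCDD, against 559.1 and 85.7 in DMSO. Both overlapped, and the single high pool of Cdkn1a was DMSO replicate 1. Without DMSO replicate 2 its log2 difference was -2.44 with a limma adjusted p of 0.0038, but that fit sets the high pool alone against TCDD and assumes that it varies like the TCDD arrays. At its other probe set the difference was 0.04 with all arrays. These genes respond to many signals besides the EGF receptor, and the part of the receptor in them was not tested. Markers of macrophages, cells that also express such early response genes, had summed signals of 880.8 and 863.1 in TCDD, against 671.2 and 641.6 in DMSO, over 12 genes on the array. All 7 of them that were tested were higher, where 51.1% of all tested probe sets were, with a median log2 difference of 0.35. Among the dim markers under the filter, Ptprc, Aif1 and Mrc1 had higher means in TCDD, while Adgre1 and Itgam ran the other way. The log2 differences of Ptprc, Aif1 and Mrc1 were 0.28, 0.08 and 0.32 in the fit of all probe sets. Ptprc overlapped between the groups, with a log2 difference of -0.01 between the arrays numbered 2. The log2 differences of Adgre1 and Itgam were -0.28 and -0.25 in the fit of all probe sets. Of the 7, 0 passed limma's adjusted p and 3 had an unadjusted p under 0.05, where 2.59% of all did, and none of the 12 was listed at 0. Their part in the early targets was not tested.

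**Figure D3:**
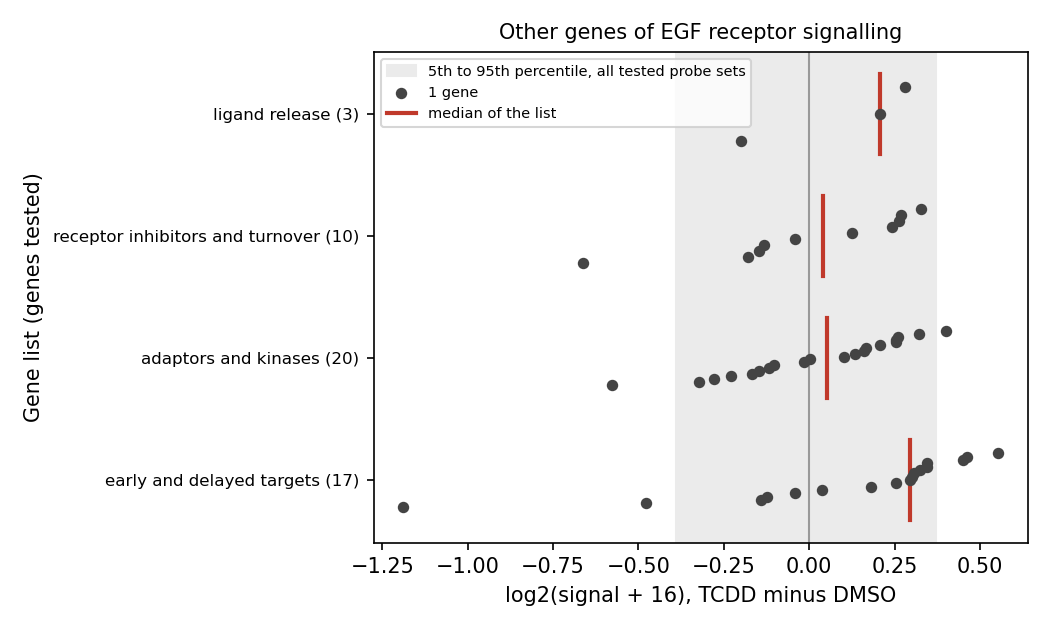
Log2 differences of the tested genes of EGF receptor signalling that are not members. Each point is a gene, the horizontal axis is log2(signal + 16), TCDD minus DMSO, the red line is the median of a list, and the grey band holds the 5th to 95th percentile of all tested probe sets, from -0.39 to 0.37. The medians are 0.21, 0.04, 0.05 and 0.30 from top to bottom, and the leftmost point is Cdkn1a at -1.19.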

How the data were processed

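Tooth germ RNA was measured on 4 murine U74v2A arrays, 2 TCDD and 2 DMSO, grouped by their titles. Affymetrix Microarray Suite 5.0 (MAS5) gave the authors an intensity signal per probe set, per the labels, with each array scaled to a target of 100. Detection calls were not used here and the genome build is not given in the sources used here. Of the 49952 deposited intensity values 18515 (37.1%), 23 of the 56 member values among them, were spreadsheet day serials (38718 to 38990), which were turned back into day.month. With 2% trimmed from either end, each array then averaged 100.05. The number of arrays limits the precision. Nothing in the labels says which explants or litters a pool holds, so p-values measure the spread between these pools. That spread is largely borrowed by limma from other probe sets, which gave 8.8 of the 10.8 degrees of freedom.

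Of 12488 probe sets, 66 controls were left out. Names of the other 12422 came from the platform annotation, where 10833 probe sets had 1 symbol, 396 several and 1193 none, and 10817 matched the GRCm38.p6 gene table through Entrez IDs. Limma 3.58.1 (R 4.3.3; lmFit, then eBayes with trend) was run on log2(signal + 16) of the probe sets whose signal averaged 50 or more, with Benjamini-Hochberg adjustment and a threshold of 0.05. The procedure was tested on simulated data with independent noise on each array. The arrays here differ, since deviations of those with the same number correlated at 0.38, and no result given here rests on the simulation. No exact permutation test was run, since its smallest two-sided p here is 0.33. The brightest probe set stood for a list gene. All member probe sets and, of each pathway list, the 4 tested genes with the smallest p are named, besides Cyp1a1 and Cyp1b1, and marker genes are named as a check of the tissue. The members and lists were chosen with earlier results of these data known. Alternatives were offsets of 1 and 64, no filter, a filter of 100, quantile normalization, no trend, day serials set to 16, each array left out, a block for replicate number, and the mean of a gene's probe sets.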

Additional observations from a re-analysis of the deposited data

How the results depend on the processing

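The count of 0 member probe sets past limma's adjusted p of 0.05 was unchanged under all 13 alternatives, and the lowest adjusted p of any tested member over them was 0.636, that of Erbb3 with a replicate block. In the main fit 4 probe sets passed over the whole array, 2 passed without the filter, 2 with quantile normalization and no filter together, and 32 with a replicate block, with 2 to 5 when 1 array was left out (2 without DMSO replicate 1 and 2 without TCDD replicate 2). Deviations of arrays with the same number from their group means correlated at 0.38 across probe sets, the labels do not tie the numbers to shared pools or days, and with 2 pairs the block leaves 1 residual degree of freedom and limma pooled all variances into its trend. Of the pathway genes, 1 passed with a replicate block and 0 to 1 when 1 array was left out, in both cases Cdkn1a, which passed without DMSO replicate 2, with its high DMSO pool alone in the group. When 1 array was left out, the log2 difference ranged from -0.06 to 0.24 for Hbegf and from -0.39 to 0.32 for Errfi1 at 93974_at. Both turned sign without DMSO replicate 1 (-0.06 and 0.32, limma adjusted p 1.0 for both). Hbegf has no value with a minimum of 100 or without DMSO replicate 2 or TCDD replicate 1, where its mean signal was under the filter. The median log2 difference of the pathway genes ranged from 0.02 to 0.21 over 14 alternatives. Dim signals limit the ligands, since 10 of the 14 member probe sets were under the filter and the table gives no detection call.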
